A study of Homo sapiens with 11 samples.

Results

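Long intergenic noncoding RNAs were taken as the genes of the authors' deposited table whose symbol is LINC followed by digits and whose mean over all 11 libraries was at least 20 normalized counts, that is, read counts divided by library size factors. They were thus chosen by this mean level and by no difference between groups. The rule kept 246 of the 568 LINC genes in the table, which holds 23434 rows in all. Of the other 322 LINC genes, 48 were at 0 in every library and 274 lay above 0 and under 20. The lowest mean kept was that of LINC01018, at 20.8 normalized counts per the authors' deposited table, followed by LINC00622 at 21.0. Just outside the rule were LINC00520 at 19.9 and LINC01106 at 19.8 per the authors' deposited table. All 246 members had an adjusted p, so none was lost to a filter on low values.

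The RNA came from tumours of the liver collected on day 21, after 500000 PANC1 LM3 cells had been injected into the spleen on day 1. PANC1 is a human cell line from a pancreatic ductal adenocarcinoma, and PANC1 LM3 is its liver-metastatic derivative of generation 3, so every tumour stems from 1 cell line. The cells carried a control hairpin (shCTRL, genotype labelled WT, 4 libraries) or 1 of 2 hairpins against NPTX1, shNPTX1_3 (3 libraries) and shNPTX1_4 (4 libraries), both labelled NPTX1 knock down. The labels call the libraries biological replicates without tying each to an animal, and the host's strain and age were likewise not given in the sources used here. Each p-value therefore measures only how far these libraries spread, which may be technical. The table gives 1 mean per group and compares once, 7 knockdown against 4 control libraries, so group means stand without an SD.

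Long intergenic noncoding RNAs are transcribed by RNA polymerase II from loci between protein-coding genes, are mostly capped, spliced and polyadenylated, and are as a class less abundant and more restricted to single tissues than messenger RNAs. Some act on the gene next to them or on chromatin, some bind proteins or microRNAs, some are the precursors of small RNAs, and some turned out to encode short peptides. LINC is a naming series and not a functional family, so its members share a place in the annotation rather than a pathway.

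NPTX1, the targeted gene, encodes the secreted neuronal pentraxin 1, and the authors' deposited table gave it means of 103, 46.5 and 38.4 normalized counts with shCTRL, shNPTX1_3 and shNPTX1_4. From the value of a single read in low rows, the depth of the libraries was estimated at between 10800000 and 41200000 reads assigned to genes. All 6 markers of pancreatic ductal cells were measured above a mean of 20. Their summed level per the authors' deposited table was 20273 (shCTRL), 59755 (shNPTX1_3) and 32140 (shNPTX1_4) normalized counts. The 4 called higher were the keratins KRT8, KRT18, KRT19 and KRT7, and the rise of the sum came from them. SOX9 was called lower, with 4358, 3583 and 3308 normalized counts, and EPCAM was not called, with 462, 438 and 548. The 9 hepatocyte markers summed to 104, 200.5 and 109 normalized counts per the authors' deposited table (2 of 6 tested called higher), with albumin (ALB) at 0.784, 0.616 and 0.284. The 7 fibroblast and stellate markers summed to 1677, 6433 and 3382, with 2 of 7 called higher per the authors' deposited table. COL3A1 made up the difference, since the other 6 summed to 945, 916 and 1135. COL1A2 of this list had 74.3, 17.8 and 17.5 normalized counts and was not called (DESeq2, adjusted p = 0.0559, per the authors' deposited table). The 5 endothelial and 6 leukocyte markers had no call among 4 and 5 tested, and summed to 368, 421 and 367 and to 856, 924 and 759 normalized counts per the authors' deposited table. These are human gene symbols, and the tumours grew from a human cell line in an animal host, so the sums do not count cells of the host. Expression by the tumour cells and host reads assigned to human genes cannot be told apart here. The part of other cells in the results on LINC genes was not tested, and in bulk tissue fewer cells of a type and less RNA per cell cannot be told apart.

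The LINC genes were lowly expressed and most lay slightly lower in the knockdown tumours. Their median mean was 88.0 normalized counts, with quartiles of 43.7 and 177, and 7 of 246 reached 1000 per the authors' deposited table. Together they held 0.243% of all normalized counts of the control tumours, 0.194% of those with shNPTX1_3 and 0.223% of those with shNPTX1_4. Of the 246 genes, 13 rose and 26 fell at a DESeq2 adjusted p under 0.05 per the authors' deposited table, 15.9% in all, against 31.2% of all 15376 tested rows with a mean of at least 20 and 27.3% of all 18509 tested rows. By direction, the LINC genes had 5.28% higher and 10.6% lower, beside 18.4% and 12.9% of rows of at least 20 and 15.8% and 11.5% of all tested rows. The median log2 fold change of the 246 genes was -0.25 per the authors' deposited table, beside 0.01 over the 15380 rows of at least 20. A log2 fold change below 0 was found for 196 of the 246 genes, 79.7%, beside 48.9% of those rows. Among the 207 LINC genes that were not called, the median was -0.24, and the median DESeq2 adjusted p was 0.310 per the authors' deposited table. Of the LINC genes under the minimum mean, 141 had an adjusted p and 5 were called, 3.55% beside 7.88% of tested rows under 20. These were LINC01107, LINC00319, LINC00639, LINC01085 and LINC01545, named after their values were seen.

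**Figure D1:**
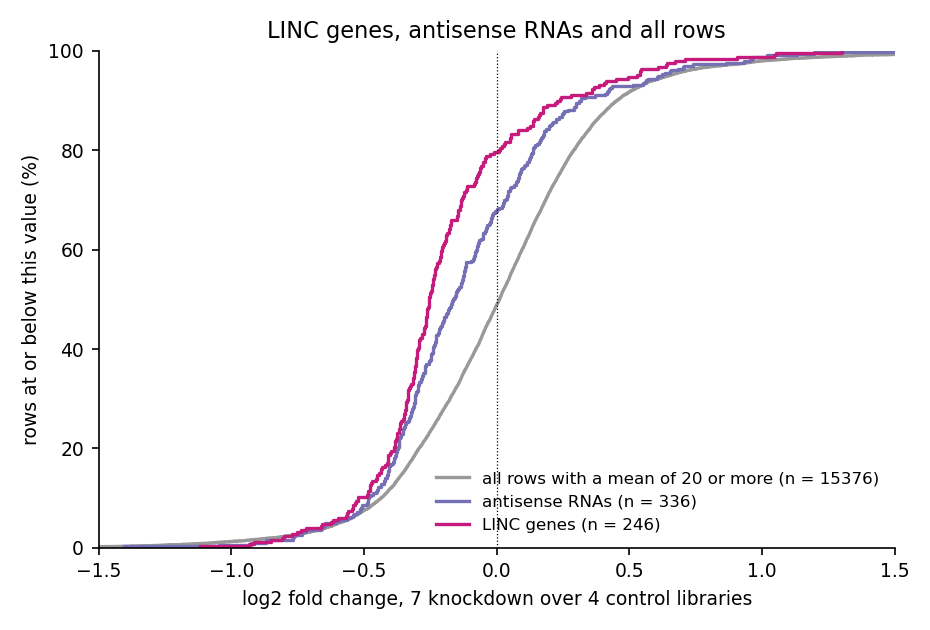
Cumulative share of genes (vertical axis, percent) at or below each log2 fold change of the knockdown over the control libraries (horizontal axis), for the 246 LINC genes, the 336 antisense RNAs and all 15376 tested rows with a mean of at least 20. The LINC curve lies left of the curve of all rows, with 79.7% of LINC genes below 0 against 48.9% of rows of at least 20.

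The balance of the calls depended on the scaling. Setting the pooled total of the knockdown libraries equal to that of the control takes 0.07 off every log2 fold change, named equal totals below. The deposited standard errors were kept. Normal p-values of the shifted values were adjusted over all tested rows, without a refit of the counts. On that scale 10 LINC genes were higher and 51 lower, so that 83.6% of the called LINC genes were lower, against 66.7% as deposited. Over all rows of at least 20, the same scaling gave 2050 higher and 2847 lower, where the authors' deposited table had 2825 and 1978. Of the 39 calls of the authors' deposited table, 36 were also made with equal totals, and LINC00324, LINC00667 and LINC01446, all higher, were lost.

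The lower call rate held within classes of level, read as a description. Among LINC genes with means of 20 to 50 normalized counts, 13.2% of 68 were called per the authors' deposited table, beside 17.1% of 1720 rows at that level. From 50 to 150 the shares were 16.0% of 106 LINC genes and 24.8% of 2728 rows. From 150 upward they were 18.1% of 72 LINC genes and 35.1% of 10928 rows. The median log2 fold change of the LINC genes in these 3 classes was -0.30, -0.26 and -0.21, beside -0.19, -0.17 and 0.06 for all rows per the authors' deposited table. Low rows as a whole therefore also lay below 0, and the gap to the LINC genes was widest in the top class. The median standard error of the log2 fold change was 0.19 for the LINC genes and 0.13 for all rows of at least 20.

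**Figure D2:**
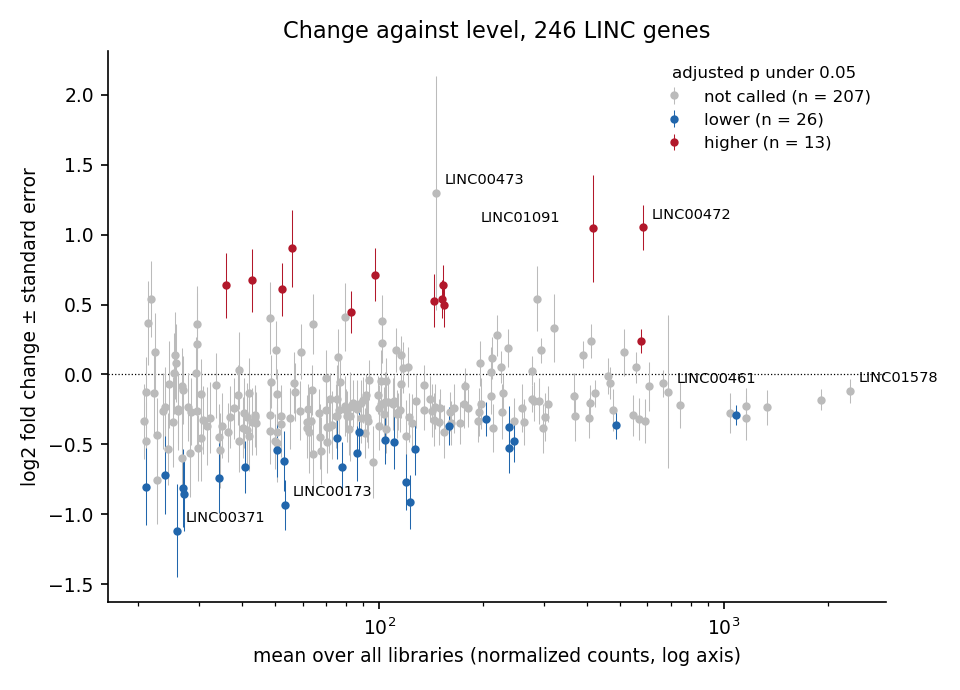
Log2 fold change with its standard error (vertical axis) against the mean over all libraries (horizontal axis, normalized counts, log axis) for the 246 LINC genes, with 13 called higher in red, 26 called lower in blue and 207 not called in grey. Most points lie below 0, LINC00473 stands highest with the longest error bar, and LINC00371 stands lowest.

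Among the genes that rose, LINC00472 showed the largest change with a narrow error. LINC00472 has been described as a transcript that is reduced in breast tumours. Its group means were 348 (shCTRL), 594 (shNPTX1_3) and 811 (shNPTX1_4) normalized counts per the authors' deposited table, so both hairpin means lay above control and shNPTX1_4 was the highest. In the authors' deposited table it rose 2.07-fold (log2 fold change 1.05, standard error 0.16, DESeq2 adjusted p = 4.97e-09). The nearest protein-coding gene in RefSeq is OGFRL1, a relative of the opioid growth factor receptor, and it also rose, by 0.49 per the authors' deposited table (DESeq2 adjusted p = 2.12e-06), with means of 1672, 2261 and 2397 normalized counts. The RefSeq promoter of LINC00472 (GRCh38.p14, minus strand, chr6:71420696-71420995, from 250 bases before to 50 after the start) is shown because this gene changed with the smallest p among the LINC genes. Capitals mark CCAAT boxes and GC boxes, read on both strands, of which the window holds 5 and 2. Some of these motifs overlap, and the window holds 31 CpG.

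LINC00472: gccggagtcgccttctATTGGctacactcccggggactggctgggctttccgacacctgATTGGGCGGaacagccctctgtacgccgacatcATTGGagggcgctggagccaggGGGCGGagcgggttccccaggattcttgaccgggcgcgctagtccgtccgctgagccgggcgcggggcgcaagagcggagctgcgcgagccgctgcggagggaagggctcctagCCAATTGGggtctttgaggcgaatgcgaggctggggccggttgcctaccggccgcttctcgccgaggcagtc

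LINC01091 rose with a wide error, and its hairpin means lay far apart. The authors' deposited table gave group means of 249 (shCTRL), 772 (shNPTX1_3) and 321 (shNPTX1_4) normalized counts. The log2 fold change was 1.04 with a standard error of 0.38 per the authors' deposited table (DESeq2 adjusted p = 0.0287). Log2 ratios to control, with 1 added to each mean, were 1.63 for shNPTX1_3 and 0.36 for shNPTX1_4. SPRY1, its nearest coding gene and an inhibitor of receptor tyrosine kinase signalling, was not called, with a log2 fold change of -0.01 per the authors' deposited table (DESeq2 adjusted p = 0.972). Unlike the CpG-rich window of LINC00472, the RefSeq promoter of LINC01091 (GRCh38.p14, plus strand, chr4:123649741-123650040) has 4 CpG and 2 TATA boxes, marked in capitals.

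LINC01091: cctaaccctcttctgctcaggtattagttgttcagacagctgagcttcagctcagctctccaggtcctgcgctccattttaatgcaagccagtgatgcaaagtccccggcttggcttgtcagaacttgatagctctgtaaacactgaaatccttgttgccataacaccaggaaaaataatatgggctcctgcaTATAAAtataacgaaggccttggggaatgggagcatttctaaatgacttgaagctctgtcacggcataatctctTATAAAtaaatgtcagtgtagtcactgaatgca

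The other named increases were smaller. LINC01270, which lies next to the transcription factor gene CEBPB, had means of 36.5, 84.9 and 53.3 normalized counts per the authors' deposited table and rose by 0.90 (standard error 0.27, DESeq2 adjusted p = 0.0066), while CEBPB itself was not called (DESeq2 adjusted p = 0.957). LINC02085, now named RDUR and described as an RNA of the antiviral response, had means of 31.1, 60.6 and 41.3 normalized counts per the authors' deposited table and rose by 0.67 (standard error 0.23, DESeq2 adjusted p = 0.016). Its nearest coding gene NFKBIZ, an atypical inhibitor of NF-kB, rose with it, from 1407 to 3377 and 2794 normalized counts per the authors' deposited table (DESeq2 adjusted p = 1.3e-16). LINC00467 had means of 69.0, 117 and 110 normalized counts per the authors' deposited table and rose by 0.71 (standard error 0.19, DESeq2 adjusted p = 0.00158). For LINC00467 and LINC00623 the means of the 2 hairpins lay close together, at 60.4 and 59.8 for LINC00623 against 38.8 normalized counts in shCTRL per the authors' deposited table. LINC00623 rose by 0.61 and LINC01446 by 0.64 per the authors' deposited table, and the call of LINC01446 ended with equal totals (log2 fold change 0.57, adjusted p = 0.0517). The other 6 genes that rose were LINC00116, treated with the coding members, LINC00888 (now SNHG33, a snoRNA host gene), LINC00324, LINC01116, LINC00857 and LINC00667, which had the smallest rise, 0.24 per the authors' deposited table.

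Of the 8 largest decreases, LINC00565 and LINC00692 had means above the LINC median of 88.0 normalized counts and the others below it, with hairpin means close together for several. LINC00371 had group means of 38.7 (shCTRL), 20.8 (shNPTX1_3) and 17.0 (shNPTX1_4) normalized counts per the authors' deposited table and fell by 1.12 on the log2 scale (standard error 0.33, DESeq2 adjusted p = 0.00551). LINC00173, a transcript described in granulocytes, went from 76.7 to 39.1 and 40.4 normalized counts per the authors' deposited table and fell by 0.93 (standard error 0.18, DESeq2 adjusted p = 4.61e-06). LINC00565 carries the current name SWINGN, for an RNA that binds the SWI/SNF chromatin remodelling complex and acts on the GAS6 gene. It went from 174 to 93.1 and 94.8 normalized counts per the authors' deposited table and fell by 0.91 (standard error 0.19, DESeq2 adjusted p = 4.16e-05). GAS6, the ligand of the AXL receptor, was not called, with means of 250.3, 340 and 233 normalized counts per the authors' deposited table (DESeq2 adjusted p = 0.530). In RefSeq LINC00565 overlaps the coding gene C13orf46 on the same strand, so reads of a shared stretch are uncertain.

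The RefSeq promoters of LINC00173 (GRCh38.p14, plus strand, chr12:116533172-116533471) and LINC00565 (GRCh38.p14, minus strand, chr13:113928942-113929241) are shown as those of the 2 decreases with the smallest p. Capitals mark 3 GC boxes in LINC00173 and 1 CCAAT box in LINC00565, and the windows hold 18 and 9 CpG.

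LINC00173: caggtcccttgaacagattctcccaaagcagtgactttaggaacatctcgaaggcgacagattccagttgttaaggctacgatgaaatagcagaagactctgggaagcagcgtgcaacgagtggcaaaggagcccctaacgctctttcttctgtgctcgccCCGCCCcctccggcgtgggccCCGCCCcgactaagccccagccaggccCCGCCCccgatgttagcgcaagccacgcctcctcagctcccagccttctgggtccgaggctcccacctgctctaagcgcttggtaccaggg
LINC00565: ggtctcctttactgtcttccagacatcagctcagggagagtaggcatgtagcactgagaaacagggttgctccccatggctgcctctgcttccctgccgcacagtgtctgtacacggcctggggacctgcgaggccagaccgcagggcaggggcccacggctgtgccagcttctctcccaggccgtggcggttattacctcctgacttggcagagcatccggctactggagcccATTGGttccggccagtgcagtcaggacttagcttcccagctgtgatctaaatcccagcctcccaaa

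LINC01743, LINC00698, LINC00622, LINC00692 and LINC00189 completed the 8 largest decreases, with log2 fold changes of -0.85, -0.81, -0.80, -0.77 and -0.74 per the authors' deposited table. LINC00692 had the smallest p of these 5, with means of 162, 87.6 and 101 normalized counts (DESeq2, adjusted p = 0.00107, per the authors' deposited table), and its nearest coding gene OXSM, a mitochondrial fatty acid synthase, had a mean of 2.24 normalized counts. LINC00622, at the edge of the rule, had means of 28.2, 20.4 and 14.4 normalized counts (DESeq2, adjusted p = 0.0187, per the authors' deposited table). The other 18 decreases ranged from -0.72 for LINC01098 to -0.29 for LINC00346 per the authors' deposited table. For every called gene in both directions, both hairpin means lay on the called side of the control mean, a count that partly follows from the call itself because the hairpins share the control libraries. The median size of the change among the 39 called LINC genes was 0.61 on the log2 scale, beside 0.45 for called rows of at least 20. The smallest called changes were 0.24 and 0.13, so the call itself selects larger changes among the LINC genes. Of the 39, 3 (LINC00472, LINC01091 and LINC00371) were at least 2-fold apart, beside 483 of the 4803 called rows of at least 20. Called or not, 4 of the 246 LINC genes and 509 of the 15380 rows changed at least 2-fold.

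**Figure D3:**
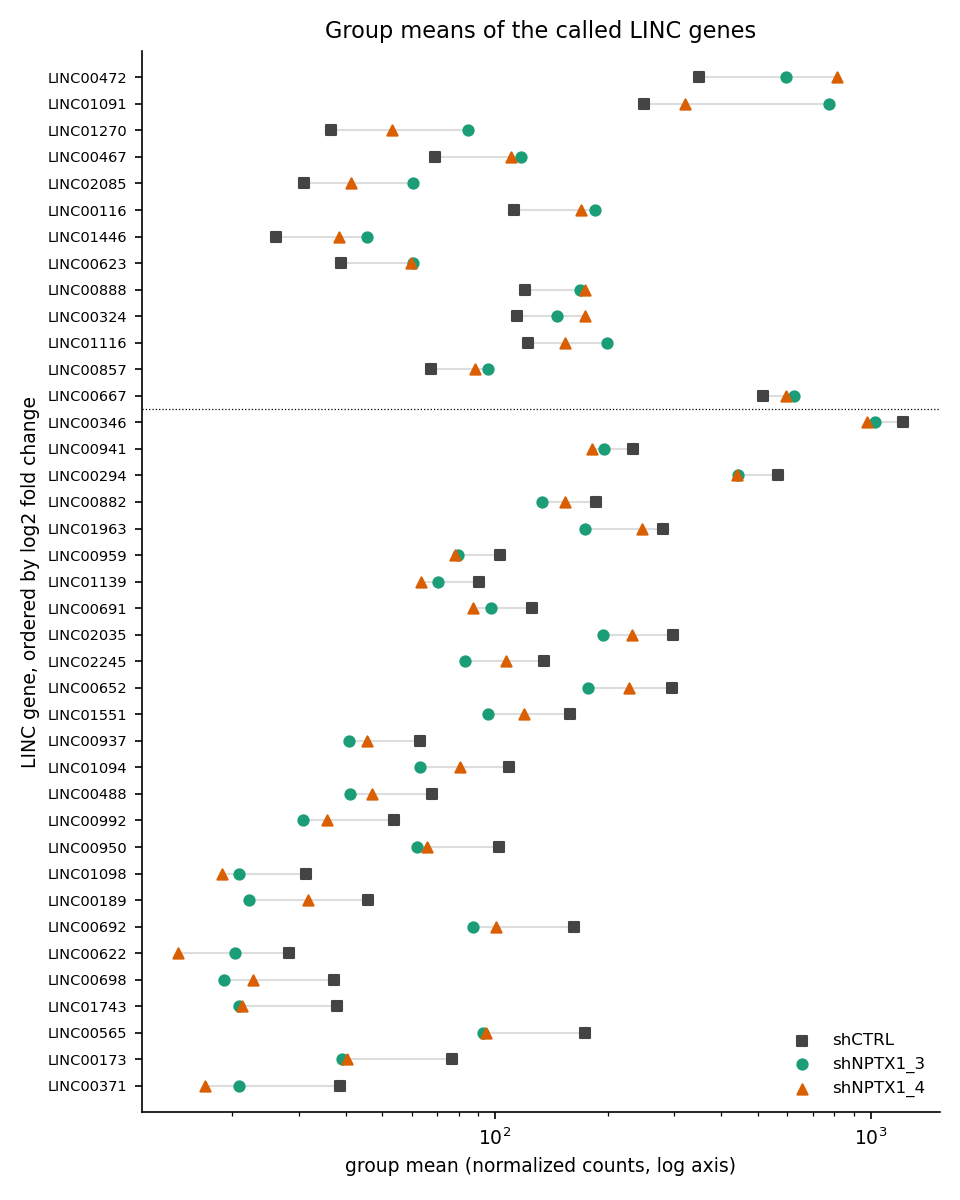
Group means (horizontal axis, normalized counts, log axis) of the 39 called LINC genes, ordered by log2 fold change, with squares for shCTRL, circles for shNPTX1_3 and triangles for shNPTX1_4. Above the dotted line the square is leftmost in the 13 genes that rose, and below it the square is rightmost in the 26 that fell; LINC01091 shows the widest gap between circle and triangle.

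Of the 6 most abundant LINC genes, 1 passed the test. LINC01578, now CHASERR, restrains the chromatin remodeller gene CHD2 that lies beside it, and had the highest mean, with 2448, 2112 and 2364 normalized counts with shCTRL, shNPTX1_3 and shNPTX1_4 per the authors' deposited table. It did not pass the test (log2 fold change -0.12, standard error 0.09, DESeq2 adjusted p = 0.319), and neither did CHD2 (log2 fold change -0.27, DESeq2 adjusted p = 0.1001) per the authors' deposited table. LINC00674 followed, with 2069, 1879 and 1787 normalized counts and a DESeq2 adjusted p of 0.0501 per the authors' deposited table, and passed with equal totals (log2 fold change -0.25, adjusted p = 0.00527). LINC01000 had 1476, 1239 and 1268, LINC00939 had 1322, 991 and 1121, and LINC00997 had 1276, 1040.0 and 1126 normalized counts per the authors' deposited table, and none passed (DESeq2 adjusted p = 0.149, 0.135 and 0.181). LINC00346, now PRECSIT and described as a p53-regulated RNA of squamous carcinoma, was the one that passed. It fell from 1223 to 1029.6 and 977 normalized counts per the authors' deposited table (log2 fold change -0.29, standard error 0.07, DESeq2 adjusted p = 6.27e-04). Per kilobase of exon in GENCODE 29, which is not the authors' annotation, LINC00674 was highest at 2609 mean normalized counts, on a model of only 734 bases. LINC00685 at 749 and LINC01004 at 537 followed, then LINC00997 and LINC01578, close together at 437 and 431. LINC01000 had no model.

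Set apart by hairpin, the LINC genes lay lower with shNPTX1_3 than with shNPTX1_4, as did other noncoding classes. With 1 added to each mean, the median log2 ratio to control over the 246 genes was -0.36 for shNPTX1_3 and -0.17 for shNPTX1_4, beside -0.0021 and 0.0038 for all rows of at least 20. Antisense RNAs at that level had -0.23 and -0.12. Other RefSeq lncRNAs had -0.25 and -0.13, and RefSeq pseudogenes had -0.26 and -0.14. At least 2-fold from control were 2 LINC genes higher and 3 lower with shNPTX1_3, where the background was 5.1% of rows of at least 20 (3.18% higher and 1.92% lower). With shNPTX1_4 there were 2 higher and 1 lower, where the background was 3.08% (1.62% and 1.46%). Both comparisons share the control libraries, and no test per hairpin was possible from group means. Between the hairpins, which share no library, the median log2 ratio of shNPTX1_4 over shNPTX1_3 was 0.17, beside 0.02 for rows of at least 20, and 2 LINC genes lay 2-fold or more above and 2 as far below, where the background was 3.08% (1.01% and 2.06%). At 1.5-fold the comparison with the background turned for shNPTX1_3, with 58 LINC genes, 23.6%, beside 18.0% of rows, where the 2-fold share was 2.03% beside 5.1%. For shNPTX1_4 the 1.5-fold share was 7.72% beside 10.5%, and between the hairpins it was 4.88% beside 9.93%.

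LINC00473 differed most between the hairpins. It is known as a target of the cAMP-responsive factor CREB. In the authors' deposited table it had group means of 75.9 (shCTRL), 23.5 (shNPTX1_3) and 309 (shNPTX1_4) normalized counts, below control with 1 hairpin and above it with the other. Its log2 ratios to control were -1.65 and 2.01, and the ratio between the hairpins was 3.66. The comparison of all knockdown libraries did not call it (log2 fold change 1.30, standard error 0.84, DESeq2 adjusted p = 0.245 per the authors' deposited table). In RefSeq it overlaps PDE10A, a phosphodiesterase gene on the same strand, so that reads of a shared stretch are uncertain. PDE10A rose by 0.94 per the authors' deposited table, with means of 1420.3, 2952 and 2545 normalized counts. PDE10A thus lay above control with both hairpins, and LINC00473 did not. The promoter of LINC00473 (GRCh38.p14, minus strand, chr6:165987990-165988289) is printed because the core of the cAMP response element, TGACGT or its complement ACGTCA, occurs 2 times in it, in capitals beside 1 GC box. Of all 27305 RefSeq promoters of this length, 8.32% hold this core, and of the 181 LINC genes matched to a promoter 14 do.

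LINC00473: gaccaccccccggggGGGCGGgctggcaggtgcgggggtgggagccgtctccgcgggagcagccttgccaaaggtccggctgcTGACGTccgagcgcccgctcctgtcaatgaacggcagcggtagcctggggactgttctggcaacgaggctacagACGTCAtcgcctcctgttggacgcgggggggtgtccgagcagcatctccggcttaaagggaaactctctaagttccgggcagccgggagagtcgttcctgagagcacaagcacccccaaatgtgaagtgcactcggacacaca

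LINC00461 came next. It is the host transcript of the microRNA gene MIR9-2, and its current name is MIR9-2HG. The authors' deposited table gave group means of 727 (shCTRL), 237 (shNPTX1_3) and 991 (shNPTX1_4) normalized counts, so shNPTX1_3 stood low and the other groups high. The log2 ratio between the hairpins was 2.06, and the knockdown comparison did not call it (log2 fold change -0.12, standard error 0.55, DESeq2 adjusted p = 0.894 per the authors' deposited table). Its 2 mature products in RefSeq (GRCh38.p14) are given with the seed, bases 2 to 8, in capitals, and the microRNAs themselves were not measured here. Their seeds differ, so the 2 arms are of different seed groups.

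hsa-miR-9-5p: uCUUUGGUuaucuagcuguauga
hsa-miR-9-3p: aUAAAGCUagauaaccgaaagu

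On the other side of the hairpin comparison stood LINC01091, with a log2 ratio of shNPTX1_4 over shNPTX1_3 of -1.26, and LINC01547, named after its values were seen, with -1.20 and means of 46.8 and 19.8 normalized counts per the authors' deposited table. No spread between libraries accompanies these ratios. The standard errors of LINC00473 and LINC00461 in the knockdown comparison, 0.84 and 0.55, exceed the LINC median of 0.19. That comparison takes the libraries of both hairpins as 1 group, so the gap between the hairpins itself enters these errors.

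**Figure D4:**
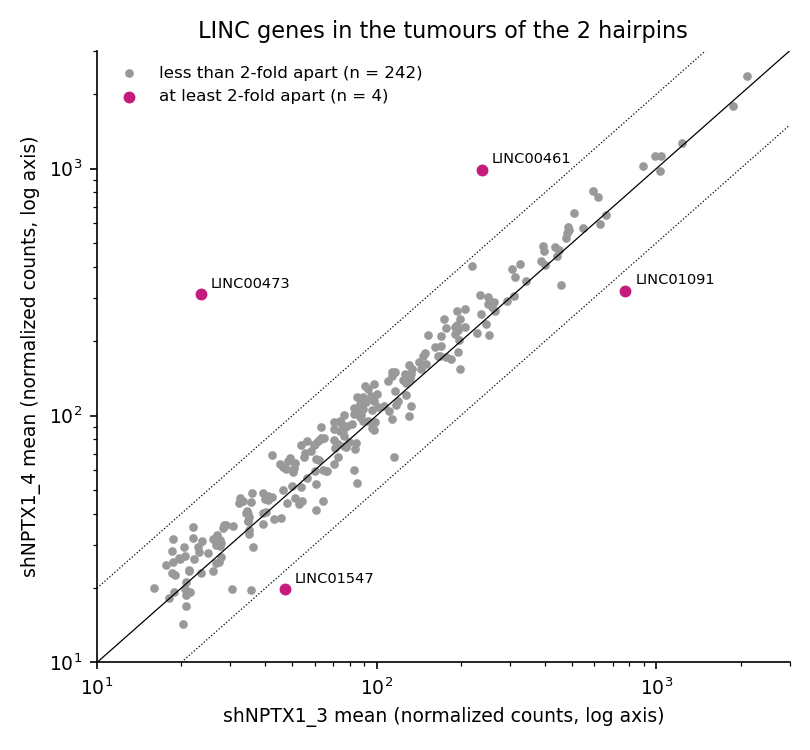
Mean of each of the 246 LINC genes in the shNPTX1_4 tumours (vertical axis) against the shNPTX1_3 tumours (horizontal axis), in normalized counts on log axes, with equality as a solid line and 2-fold differences as dotted lines. The 4 genes at least 2-fold apart are named: LINC00473 and LINC00461 lie above the lines and LINC01091 and LINC01547 below.

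All 246 LINC symbols matched RefSeq, 206 by current symbol and 40 by an older one. RefSeq lists 231 of them as lncRNA, 14 as protein coding and 1 as a transcribed pseudogene. Of the 14 listed as coding, 1 rose and 3 fell per the authors' deposited table, and their median log2 fold change was -0.31. Beside this small set, 5.28% of all 246 LINC genes rose and 10.6% fell, and 18.4% and 12.9% of rows of at least 20. LINC00116 is MTLN, which encodes mitoregulin, a micropeptide of the inner mitochondrial membrane. Its means were 112 (shCTRL), 185 (shNPTX1_3) and 169 (shNPTX1_4) normalized counts per the authors' deposited table, with both hairpins above control and near each other. It rose 1.56-fold (log2 fold change 0.64, standard error 0.14, DESeq2 adjusted p = 9.59e-05 per the authors' deposited table). The reading frame of 171 bases and 56 codons is printed from the GENCODE 29 transcript (GRCh38, minus strand, chr2:110212355-110212525, within 1 exon), with the start and stop codons in capitals, because it shows that a LINC symbol of the table can stand for a messenger RNA.

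LINC00116: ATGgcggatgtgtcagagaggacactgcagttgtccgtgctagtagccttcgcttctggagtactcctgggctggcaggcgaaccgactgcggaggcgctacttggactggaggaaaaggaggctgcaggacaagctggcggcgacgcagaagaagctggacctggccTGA

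Of the other coding members, LINC00371 (C13orf42), LINC00950 and LINC00959 (C10orf143) fell, LINC00950 by 0.66 and LINC00959 by 0.41 (DESeq2 adjusted p = 0.00192 and 0.0411, per the authors' deposited table). RefSeq folds LINC00950 into TMEM8B and LINC00889 into FGF13, both of which also have rows of their own, so reads of these pairs are uncertain. LINC00998, which is SMIM30 and encodes a small membrane protein, had means of 194, 194 and 265 normalized counts per the authors' deposited table and was not called (DESeq2 adjusted p = 0.138). LINC01207 (SMIM31), LINC00094 (BRD3OS), LINC00672 (LASP1NB), LINC00514 (GREP1), LINC01125 (C2orf92), LINC00483 (ANKRD40CL), LINC00176 (C20orf204), LINC00854 (CCDC200) and LINC00889 were not called either, with log2 fold changes from -0.49 to -0.11 per the authors' deposited table.

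The changes were also set beside gene structure and place. GENCODE 29 models were matched for 233 genes, with a median exonic length of 3174 bases, a median of 4 exons in the transcript with most exons, and a median GC content of 45.9%. Across these 233 genes, which share libraries and depth, Spearman's rho of the log2 fold change was 0.0018 with exonic length and 0.05 with GC content. With the mean level it was 0.22 over 246 genes, and over the 15380 rows of at least 20 it was 0.24. Of the 12 genes with 1 exon, 0 rose and 6 fell per the authors' deposited table, with a median of -0.33, and of the 221 genes with more exons 13 rose and 19 fell, with a median of -0.26. In RefSeq 30 LINC genes overlapped a coding gene, of which 0 rose and 2 fell, and their median was -0.16, beside -0.26 for the 216 that overlapped none. The LINC genes lay on 23 chromosomes. The 9 on chromosome X had a median log2 fold change of 0.13 per the authors' deposited table, and 0 of them passed the test. Among all 246 LINC genes 5.28% rose and 10.6% fell, and among rows of at least 20 the shares were 18.4% and 12.9%. These subsets are small, and differences between them were not tested.

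Of the nearest protein-coding genes of the 39 called LINC genes, 28 had an adjusted p and 10 of these, 35.7%, were called. No minimum mean was asked of the neighbours. The share called was 27.3% of all tested rows, 31.2% of rows of at least 20 and 32.8% of protein-coding rows at that level. The other 11 neighbours could not pass, having no adjusted p or no row. Beside the 13 that rose, the neighbour rose in 4 cases, was not called in 7 and had no adjusted p in 2. The 4 pairs were LINC00472 with OGFRL1, LINC02085 with NFKBIZ, LINC01116 with the mitochondrial import gene MTX2 and LINC00857 with the annexin gene ANXA11. Beside the 26 that fell, the neighbour fell in 4 cases, rose in 2, was not called in 11, had no adjusted p in 6 and was not in the table in 3. Those that fell were SLC1A4, TCP11L1, CAPRIN2 and ANKRD10, next to LINC02245, LINC00294, LINC00941 and LINC00346, and those that rose were BACH1 and AGA, next to LINC00189 and LINC01098. Over all LINC genes, 190 distinct nearest coding genes had an adjusted p, of which 27 rose and 39 fell per the authors' deposited table, 34.7% in all, with a median log2 fold change of -0.05. Over all tested rows the shares were 27.3% in all, 15.8% higher and 11.5% lower. Over rows of at least 20 they were 31.2% in all, 18.4% higher and 12.9% lower. Protein-coding rows at that level had 32.8% in all, with 2700 higher and 1734 lower of 13530. Across 197 LINC genes, Spearman's rho between the log2 fold change of the gene and that of its nearest coding gene was 0.13, a description over points that share libraries.

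Promoter windows were matched for 181 LINC genes, and the median window held 8 CpG, beside 14 over all 27305 RefSeq promoters. Searched on both strands, the CCAAT box (CCAAT) occurred in 38.1% of the LINC windows and 35.7% of all windows, the GC box (GGGCGG) in 37.6% and 44.6%, and the TATA box (TATAAA) in 14.9% and 11.95%. The AP-1 element (TGANTCA) occurred in 12.2% and 7.76%, the cAMP response element core (TGACGT) in 7.73% and 8.32%, and the E-box (CACGTG) in 5.52% and 7.43%. These letters say where a motif occurs in the sequence and nothing on whether a factor was bound.

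Other noncoding RNAs gave the setting. Of 336 antisense RNAs with a mean of at least 20, 19 rose and 50 fell per the authors' deposited table, with a median log2 fold change of -0.16. RefSeq pseudogenes at that level had a median of -0.18 (14 rose and 70 fell of 457), other RefSeq lncRNAs had -0.19 (26 rose and 52 fell of 332), and protein-coding genes had 0.03 (2700 rose and 1734 fell of 13530) per the authors' deposited table. The LINC genes, at -0.25, thus had the lowest median of these classes, and the difference between classes was not tested. With equal totals every one of these medians is 0.07 lower, which puts that of the protein-coding genes below 0. The host genes of small nucleolar RNAs had a median above 0. Of 18 tested, 4 rose (SNHG15, SNHG10, SNHG5 and SNHG12) and 0 fell, 22.2% and 0% beside 15.8% and 11.5% of all tested rows, with a median of 0.29. SNHG15 had means of 1108, 1428 and 1595 normalized counts per the authors' deposited table. Of 32 tested genes in a list of well-known long noncoding RNAs, 9 rose and 2 fell per the authors' deposited table, 28.1% and 6.25% beside the same 15.8% and 11.5%, with a median of 0.14. MIR100HG, the host of a microRNA cluster, rose by 1.47 and MIR31HG, the host of miR-31, by 1.42 per the authors' deposited table. The 2 that fell were MALAT1 and KCNQ1OT1. MALAT1, an RNA of nuclear speckles, had means of 750289, 575260 and 481245 normalized counts per the authors' deposited table (log2 fold change -0.52, standard error 0.21, DESeq2 adjusted p = 0.0467). KCNQ1OT1, which silences an imprinted domain, had 36061, 23805 and 28682 normalized counts per the authors' deposited table (log2 fold change -0.44, standard error 0.17, DESeq2 adjusted p = 0.0401). NEAT1, the scaffold of paraspeckles, was not called, with 178089, 169309 and 119497 normalized counts per the authors' deposited table (DESeq2 adjusted p = 0.235).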

How the data were processed

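The samples were 11 RNA-seq libraries, 4 shCTRL, 3 shNPTX1_3 and 4 shNPTX1_4. Per the labels' protocols, a Norgen kit gave the RNA and TruSeq v2 chemistry the libraries. Tools named per the submitters' processing notes are DESeq2 1.24, featureCounts 2.0.0, STAR 2.7.6a and MultiQC 1.9, and builds hg19 and mm39, with no role stated. The annotation, the strand setting and any removal of mouse reads were each not given in the sources used here. The deposited group means are a signal, counts divided by size factors and averaged by the authors. The log2 fold change, its standard error, the Wald statistic (a score), the p-value and the adjusted p were deposited by the authors under DESeq2 column names, per the file headers. In 246 of 246 members the mean equalled the group means weighted by 4, 3 and 4, within a relative 1e-06.

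The planned count test was replaced by the deposited comparison, since the table holds group means. Log2 ratios of group means used a pseudocount of 1, which understates low genes. Depth was read from single-read steps, with 80.1% to 85.3% of group means under 0.8 at whole reads within 2e-05 normalized counts; intervals for single libraries cannot be given. RefSeq (GRCh38.p14) and GENCODE 29 gave names, neighbours, overlaps, lengths and sequences, joined to the data by gene symbol. Their build is not the authors'. The neighbours, overlaps and lengths set beside the log2 fold changes may therefore differ from those of the authors' annotation. Named were the 8 largest called changes each way, the 6 highest means, the 3 genes with hairpins furthest apart, the 2 on each side of the minimum, the RefSeq coding members, the 2 largest called changes each way in the lists of other RNAs, and the nearest coding genes of these called genes; other genes were named after their values were seen. The members, lists and rules were chosen with earlier results of these data known. Python 3.11.15, pandas 2.3.3 and scipy 1.17.1 were used, and the adjustment was tested on simulated data.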

Additional observations from a re-analysis of the deposited data

How the results depend on the processing

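Without values of single libraries, the alternatives that leave out a library were not run. No paired analysis was possible because the table holds group means, although the titles give replicate numbers. With equal totals, that is, shifted log2 fold changes and the deposited standard errors, 51 of the 246 LINC genes were lower in place of 26. Of the 15376 tested rows of at least 20, 2847 were lower in place of 1978. With each group mean scaled to the same total, 8 LINC genes in place of 5 lay at least 2-fold from control with shNPTX1_3. Equal totals lower every log2 fold change by 0.07, and every log2 ratio of shNPTX1_3 to control by about 0.09. An adjusted p under 0.01 left 7 higher and 10 lower, and no share over all rows was computed at this threshold. An adjusted p under 0.05 together with a change of at least 2-fold left 2 higher and 1 lower. Of the 15380 rows of at least 20, 483 met the latter rule. A minimum mean of 10 gave 9 genes at least 2-fold from control with shNPTX1_3 and 5 with shNPTX1_4, since more low genes enter. For the 2-fold counts with equal totals or this minimum, no share over all rows was computed. At 1.5-fold, 58, 19 and 12 LINC genes were counted for shNPTX1_3, for shNPTX1_4 and between the hairpins, in place of 5, 3 and 4. The other counts stayed within 1.5 times, and the median log2 fold change ranged from -0.36 to -0.17 over its 6 alternatives. Of 37 named LINC genes, 34 kept their side of the threshold with equal totals, LINC01446 lost its call, and LINC00674 and LINC00514 gained one; centring on the median of all rows changed no call among these 37. The median standard error was 0.19 for the LINC genes and 0.13 for all rows of at least 20. By level it was 0.25 and 0.27 from 20 to 50 normalized counts, 0.19 and 0.18 from 50 to 150, and 0.15 and 0.11 above; the part of depth was not tested.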

Other observations

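In all, 24 of the 246 LINC genes within the rule had a DESeq2 adjusted p between 0.05 and 0.10 per the authors' deposited table, 22 of them with a log2 fold change below 0. Of the 15380 rows of at least 20, 1232 lay in this band, 645 of them below 0. LINC00673, which lies at a locus associated with pancreatic cancer risk and was picked after its values were seen, had means of 685, 663 and 650.4 normalized counts with shCTRL, shNPTX1_3 and shNPTX1_4 per the authors' deposited table and was not called (log2 fold change -0.06, standard error 0.09, DESeq2 adjusted p = 0.658). PURPL, listed as LINC01021 and known as a p53-induced RNA, was likewise picked afterwards: it had means of 65.2, 115 and 67.8 normalized counts per the authors' deposited table, high with 1 hairpin, and was not called (DESeq2 adjusted p = 0.201).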
